A study of Mus musculus with 4 samples.

Results

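T-cell receptor β chains that use the variable segment TRBV3 were described in CD8+ T cells from tumour-bearing mouse livers, together with a recurrent group of their CDR3 loops. A receptor counted as TRBV3 when the first V hit listed for its rearrangement was TRBV3, and the main set was limited to in-frame rearrangements, those without a frame shift or stop codon in CDR3. This gave 21849 TRBV3 clonotypes of 238470 in-frame clonotypes over 4 libraries, where each distinct CDR3 nucleotide sequence, V segment and J segment is one clonotype, counted once per library. The recurrent group held the TRBV3 clonotypes whose CDR3 is 15 residues long and ends in the 9 residues RRSGNTLYF. It had 40 clonotypes over the libraries, which are 20 distinct nucleotide sequences and 8 distinct amino acid sequences. Both TRBV3 and the group were chosen from measured values: TRBV3 for its share of counts in the 2 genotypes, and the group for its recurrence among large clonotypes. Those values are therefore given as a description, without a test.

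Mice that lacked Vsig4 were compared with wild-type mice. The protein, VSIG4, is an immunoglobulin-like receptor for complement fragments that is carried by Kupffer cells, the macrophages resident in liver. All mice had been injected with MC38 cells, a mouse colon adenocarcinoma line that the labels call a melanoma, and livers with metastases were taken 14 days later. Live CD45+CD3+CD8+ cells were sorted and their T-cell receptor RNA was sequenced in bulk, with 2 libraries per genotype, named here Vsig4-deficient 1 and 2 and wild-type 1 and 2. The promoter or construct of the Vsig4 deletion, the age of the mice and whether a library came from 1 animal or a pool are not given in the labels. P-values therefore measure only the spread between these samples, which may be technical. Cd8a, Cd3e and Vsig4 transcripts are not part of the assay, so neither the sort nor the genotype could be checked against them.

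A β chain is assembled in the thymus by joining a V, a D and a J segment, with bases trimmed from the segment ends and untemplated bases added between them. The joint encodes CDR3, the loop that makes most contacts with the presented peptide, while the loops CDR1 and CDR2 are encoded by the V segment itself. TRBV3 is one V segment of the mouse locus, and RefSeq lists Tcrb-V16 among its synonyms. RefSeq places Trbv3 on chromosome 6 at 41048394 to 41048824 of GRCm38.p6, between Trbv2 (41047556 to 41047995) and Trbv4 (41059443 to 41059886). Trbj1-3, the J segment of the recurrent group, lies at 41534323 to 41534372, within the first of the 2 J clusters.

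The sequences that carry the recurrent group are the CDR3 joints themselves. Its 20 nucleotide sequences encode 8 amino acid loops, and the loop with the most was encoded by 8 of them. The 11 most abundant of the 20 are shown here 5′ to 3′, named by their residues 5 and 6, with the 6 bases that encode the arginine pair at residues 7 and 8 in capitals (bases 19 to 24 of CDR3).
Leu-Ala 1: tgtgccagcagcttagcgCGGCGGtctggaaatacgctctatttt
Leu-Gly 1: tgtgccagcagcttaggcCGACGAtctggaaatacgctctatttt
Leu-Gly 2: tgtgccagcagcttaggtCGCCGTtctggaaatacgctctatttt
Pro-Gly 1: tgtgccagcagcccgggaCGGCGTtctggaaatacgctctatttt
Ser-Gly 1: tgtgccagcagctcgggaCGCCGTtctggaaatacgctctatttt
Leu-Ala 2: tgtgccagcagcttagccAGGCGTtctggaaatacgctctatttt
Leu-Gly 3: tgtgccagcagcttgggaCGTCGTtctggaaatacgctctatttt
Ser-Gly 2: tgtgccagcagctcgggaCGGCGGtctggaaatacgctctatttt
Ser-Gly 3: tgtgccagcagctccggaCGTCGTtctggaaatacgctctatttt
Pro-Gly 2: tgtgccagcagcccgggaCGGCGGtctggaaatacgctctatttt
Leu-Gly 4: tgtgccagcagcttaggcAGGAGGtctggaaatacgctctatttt

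The flanks of these joints could be read as segment sequence. Among TRBV3 clonotypes with no V trimming, 595 of 616 began with the same 17 bases, tgtgccagcagcttagc. Among TRBV3-TRBJ1-3 clonotypes with no J trimming, 217 of 220 ended with the same 22 bases, ttctggaaatacgctctatttt. In the group the V segment supplied the first 12 to 17 bases, followed in 2 sequences by 2 bases past the V end. The J segment began at base 24 or 25, and 4 to 11 bases (median 7) belonged to no segment, those 2 bases included. The arginine codons thus lie at the joint: 5 different codons were used at residue 7, 5 at residue 8, and 9 different pairs over the 20 sequences. No D segment was assigned in 14 of the sequences, and TRBD1 was assigned in 6.

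In-frame rearrangements took 958198 and 1227914 counts in the Vsig4-deficient libraries and 875201 and 857452 in the wild-type libraries. They formed 47017 and 70126 clonotypes in the Vsig4-deficient pair and 47558 and 73769 in wild-type libraries. Libraries of one genotype shared nucleotide clonotypes: 890 TRBV3 clonotypes were listed in both Vsig4-deficient libraries (21.1% of those of library 1 and 13.2% of library 2). In both wild-type libraries 781 were listed (18.2% and 11.8%). Pairs of different genotypes shared 205 to 630, which are 4.79% to 10.2% of the TRBV3 clonotypes of a library. Low counts of a sequence that is large in another library are therefore given with that library's count, and the numbers of group members are also given without them. Whether such low counts were carried over between libraries was not tested. Intervals on shares of a single library are 95% Wilson intervals. They cover counting error alone. Whether a count is a read or a molecule is not stated, and PCR copies would not stand for separate molecules. Fewer cells with a receptor and less receptor RNA per cell cannot be told apart in these bulk counts.

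Counted once each, TRBV3 clonotypes held between 8.95% and 9.61% of every library. They made up 8.99% (interval 8.74 to 9.25) and 9.61% (9.39 to 9.83) of in-frame clonotypes in Vsig4-deficient libraries, against 9.01% (8.75 to 9.27) and 8.95% (8.74 to 9.155) in wild-type libraries. Vsig4-deficient 2 was the highest, and Vsig4-deficient 1 lay between both wild-type libraries. The means were 9.30% ± 0.436 and 8.98% ± 0.0417 (SD, n = 2 each). edgeR's quasi-likelihood test gave a log2 ratio of 0.05 ± 0.07 (SE, adjusted p = 0.609), and called 0 of 23 TRBV segments (0.0%), with 0 below 0.05 before adjustment, while DESeq2 called 0. Without Vsig4-deficient 1 the log2 ratio was 0.10 (edgeR adjusted p = 0.0170), a fit in which the spread comes from the wild-type libraries alone and 13 of the 23 segments were called. In each library TRBV3 ranked between 3 and 5 among 20 segments with at least 100 clonotypes.

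The share of TRBV3 was set beside that among out-of-frame rearrangements, which encode no receptor and were not selected as one. TRBV3 made up 8.99% and 9.61% of in-frame against 8.59% and 7.98% of out-of-frame rearrangements in Vsig4-deficient libraries. In wild-type libraries it made up 9.01% and 8.95% of in-frame against 7.83% and 7.68% of out-of-frame rearrangements. The in-frame share was higher in 4 of 4 libraries, by 0.400 to 1.62 percentage points (mean 1.12). Without clonotypes of 1 count it was higher in 3 of 4 libraries, and in Vsig4-deficient 1 the difference was -0.0748 points. With all clonotypes, an exact sign-flip permutation test gave p = 0.125, two-sided, which is the smallest that 4 libraries allow. In Vsig4-deficient 1 the Wilson intervals of both shares overlapped (8.74 to 9.25 in frame and 7.85 to 9.40 out of frame, from 429 of 4993 out-of-frame rearrangements).

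**Figure D1:**
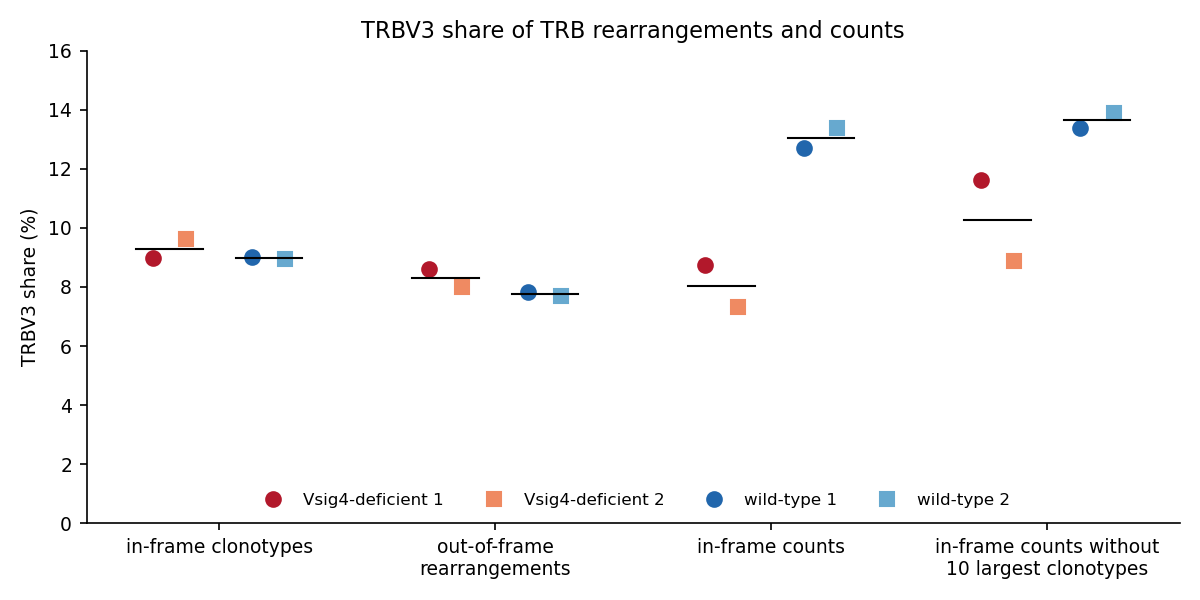
TRBV3 share in percent, by library, of in-frame clonotypes, out-of-frame rearrangements, in-frame counts, and in-frame counts without the 10 largest clonotypes of each library; points are libraries and black lines are genotype means. The 4 libraries lie between 8.95% and 9.61% by in-frame clonotypes, while by counts the Vsig4-deficient libraries (8.73% and 7.33%) lie below the wild-type libraries (12.7% and 13.4%).

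Weighted by counts, TRBV3 held less of the Vsig4-deficient repertoires. TRBV3 clonotypes held 83697 and 90066 counts in Vsig4-deficient libraries and 111171 and 114781 in wild-type libraries. These are 8.73% and 7.33% of in-frame counts in the Vsig4-deficient pair, against 12.7% and 13.4% in wild-type libraries, and the genotypes did not overlap. Of 23 TRBV segments, 9 (39.1%) had both Vsig4-deficient libraries below both wild-type libraries by this measure. As background, edgeR over 24 segments by counts called 0 (0.0%), with 4 below 0.05 before adjustment, while DESeq2 called 1, and no test of TRBV3 is read from these fits. The log2 ratio of its share was -0.70, and -0.40 with the size factors of DESeq2.

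The 10 largest clonotypes of each library held 0 and 1 TRBV3 receptors in the Vsig4-deficient pair and 1 and 1 in wild-type libraries. With these 10 left out, an alternative chosen after the data were seen, TRBV3 held 11.6% and 8.89% of the remaining counts in Vsig4-deficient libraries, against 13.4% and 13.9% in wild-type libraries. The log2 ratio was then -0.41.

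TRBV3 receptors were more frequent among clonotypes of middle size than among small ones. Among clonotypes with 11 to 100 counts, TRBV3 made up 14.6% and 10.9% in the Vsig4-deficient pair and 12.7% and 14.9% in wild-type libraries. Among clonotypes with 2 to 10 counts it made up 6.47% and 9.54% in the Vsig4-deficient pair, against 5.54% and 6.35% in wild-type libraries. For each library the share was higher in the middle class, by the smallest margin in Vsig4-deficient 2. TRBV3 was not alone in this: by its percent of clonotypes with 11 to 100 counts it ranked 2 and 7 in the Vsig4-deficient pair and 4 and 3 in wild-type libraries, among 20 segments. TRBV13-2 ranked above it in each library (51.6% and 27.2% in Vsig4-deficient, against 56.2% and 55.3% in wild-type libraries). Read the other way, 48.2% and 20.5% of TRBV3 clonotypes in Vsig4-deficient libraries had 11 to 100 counts, against 27.8% and 17.8% of clonotypes of other segments. In wild-type libraries the shares were 53.5% and 53.0% for TRBV3 and 36.4% and 29.8% for other segments. The difference was positive in 4 of 4 libraries (mean 15.8 percentage points ± 9.13 SD). Clonotype size enters the TRBV3 share of counts, for which TRBV3 was chosen, so no test is given.

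Among clonotypes with over 100 and up to 1000 counts, TRBV3 made up 11.7% and 5.40% in the Vsig4-deficient pair and 15.3% and 14.2% in wild-type libraries. Vsig4-deficient 2 stood below the other libraries here, with an interval of 4.13 to 7.03. Above 1000 counts TRBV3 supplied 3 of 67 and 7 of 69 clonotypes in Vsig4-deficient libraries, against 3 of 23 and 1 of 16 in wild-type libraries. The intervals of these last shares, which cover counting error alone, all overlapped.

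**Figure D2:**
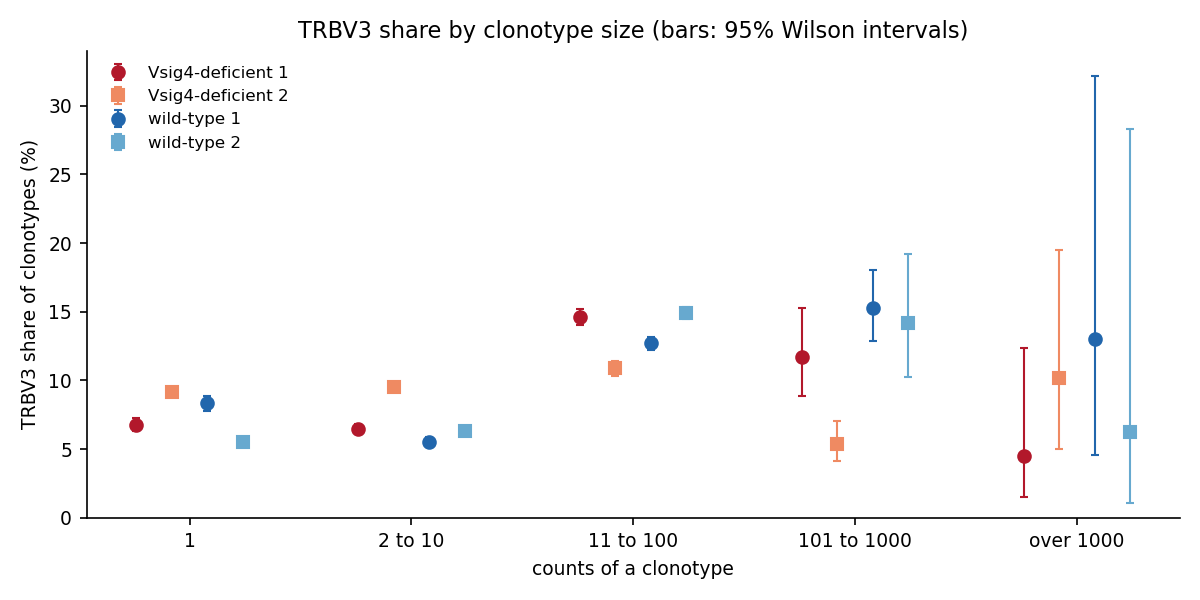
TRBV3 share of in-frame clonotypes in percent, by the number of counts of a clonotype (5 classes) and library; points are libraries and bars are 95% Wilson intervals for counting error. At 11 to 100 counts all libraries lie between 10.9% and 14.9%, above their own values at 2 to 10 counts.

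The median TRBV3 clonotype had 10 and 3 counts in the Vsig4-deficient pair and 14 and 12 counts in wild-type libraries. For other segments the medians were 5 and 3 in the Vsig4-deficient pair and 6 and 5 in wild-type libraries. Vsig4-deficient 2 was the library with no gap between them, and 31.6% of its TRBV3 clonotypes had 1 count, where 33.2% of its other clonotypes had 1 count too. In the other libraries 10.8% to 19.8% of TRBV3 clonotypes had 1 count, beside 18.3% to 21.6% of the others. Mean counts lay on different sides of other segments in the genotypes. A TRBV3 clonotype had 19.8 and 13.4 counts on average in Vsig4-deficient libraries, where other clonotypes had 20.4 and 17.95. In wild-type libraries it had 26.0 and 17.4 counts, where other clonotypes had 17.7 and 11.1.

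The largest TRBV3 clonotypes differed from library to library. In Vsig4-deficient 1 they had 3439 counts (TRBJ2-1), 3287 counts (Leu-Gly 1 of the recurrent group) and 1101 counts (TRBJ1-4). In Vsig4-deficient 2 they were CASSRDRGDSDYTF with TRBJ1-2 (12277 counts), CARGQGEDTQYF with TRBJ2-5 (4182 counts) and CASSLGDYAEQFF with TRBJ2-1 (2770 counts). In wild-type 1 they were Leu-Ala 1 of the group (4414 counts), a TRBJ2-4 receptor (1354 counts) and Leu-Gly 2 of the group (1164 counts). In wild-type 2 they were a TRBJ2-2 receptor (1747 counts), Pro-Gly 1 of the group (973 counts) and another TRBJ2-2 receptor (934 counts). In 3 of 4 libraries a member of the recurrent group was thus among the 3 largest TRBV3 clonotypes, the exception being Vsig4-deficient 2.

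The 10 largest TRBV3 clonotypes held 14.99% and 30.02% of TRBV3 counts in the Vsig4-deficient pair, against 9.67% and 6.18% in wild-type libraries. For all other segments pooled, the 10 largest held 27.2% and 30.5% in the Vsig4-deficient pair and 9.94% and 5.91% in wild-type libraries. The pooled set had 42789 to 67169 clonotypes per library, and TRBV3 had 4228 to 6738. Its 10 largest are thus a smaller part of the pooled set, and these shares are not a like-for-like comparison of clone sizes. The difference between genotype means (Vsig4-deficient minus wild-type) was 14.6 percentage points for TRBV3 and 20.9 for the pooled other segments. TRBV3 was chosen from its counts in the 2 genotypes, so no test is given. The TRBV3 difference was 22.1 without Vsig4-deficient 1. It was 7.06 without Vsig4-deficient 2, where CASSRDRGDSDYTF alone held 13.6% of TRBV3 counts. Clonotypes above 0.1% of all in-frame counts numbered 3 and 5 for TRBV3, of 71 and 60 in all, in Vsig4-deficient libraries. In wild-type libraries they numbered 3 and 3, of 30 and 21 in all.

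TRBV3 and the other V segments differed most in their joining to TRBJ1-6. This segment was joined to 1.11% and 1.38% of TRBV3 clonotypes in Vsig4-deficient libraries, against 3.23% and 3.53% of clonotypes of other segments. In wild-type libraries it was joined to 1.24% and 1.18% of TRBV3 clonotypes, against 3.11% and 3.05% of the others. TRBJ2-7 was the most used partner (19.4% to 20.4%), followed by TRBJ2-1 (13.03% to 15.05%) and TRBJ2-5 (12.5% to 13.5%). TRBJ2-3 and TRBJ2-5 were used more by TRBV3 than by other segments in every library, by means of 1.16 and 1.02 percentage points. TRBJ1-1 was used less, by a mean of 1.23 points (-1.23, TRBV3 minus other).

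The difference had one sign in 4 of 4 libraries for 8 of 12 J segments, each with an exact sign-flip permutation p = 0.125 (0.188 adjusted over 12), the smallest possible. The first J cluster as a whole held 30.8% and 27.8% of TRBV3 clonotypes in Vsig4-deficient libraries, against 32.4% and 32.0% of the others. In wild-type libraries it held 28.4% and 29.0% of TRBV3 clonotypes, against 30.9% and 31.5% of the others. TRBJ1-3 was used by 4.00% and 3.47% of TRBV3 clonotypes in the Vsig4-deficient pair and 3.90% and 3.70% in wild-type libraries, and its share did not lie to one side of that in other segments.

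J partners were then compared between genotypes. The edgeR test over 259 V-J pairs by clonotypes called 0 pairs (0.0%), with 9 below 0.05 before adjustment, while DESeq2 called 0. All 12 TRBV3 pairs were tested and 0 were called (smallest edgeR adjusted p = 0.670). Their log2 ratios ran from -0.04 for TRBJ2-4 to 0.12 for TRBJ1-6, with a median of 0.06 beside -0.02 over all pairs. Without Vsig4-deficient 1, edgeR called 1 TRBV3 pair, that with TRBJ2-1 (log2 ratio 0.24, adjusted p = 0.0402), among 85 of 254 pairs in all.

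**Figure D3:**
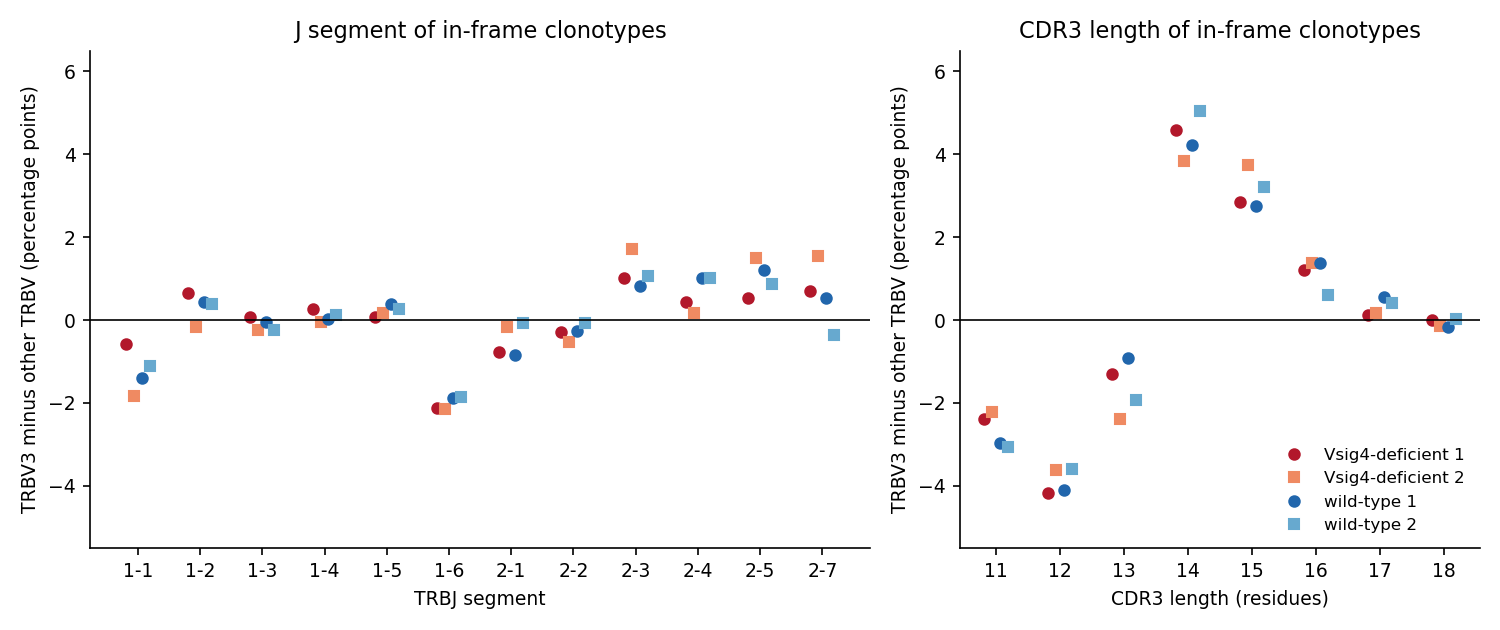
Difference between TRBV3 and all other TRBV segments, in percentage points of in-frame clonotypes, for each TRBJ segment (left) and CDR3 length in residues (right); points are the 4 libraries and the line marks no difference. TRBJ1-6 lies about 2.00 points lower in every library, and lengths 14 to 17 lie above 0 while lengths 11 to 13 lie below it.

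TRBV3 loops were longer than those of all other V segments pooled, in each library. Among 20 segments TRBV3 ranked 5 by mean length in each library, after TRBV2, TRBV5, TRBV1 and TRBV23. Mean CDR3 length was 14.18 and 14.19 residues for TRBV3 in Vsig4-deficient libraries, against 13.92 and 13.93 for other segments. In wild-type libraries it was 14.20 and 14.18 for TRBV3, against 13.92 and 13.90. The mean difference was 0.273 residues ± 0.0160 (SD, n = 4, exact sign-flip permutation p = 0.125, 0.156 adjusted over 10 measures). Loops of 14 residues made up 34.8% of TRBV3 against 30.4% of other clonotypes, and loops of 12 residues 6.90% against 10.8% (means of 4 libraries). Between genotypes the mean TRBV3 length differed by -0.0123 residues (Vsig4-deficient minus wild-type, two-sided exact permutation p = 0.667). The libraries themselves ranged from 14.18 to 14.20 residues.

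The joints of TRBV3 had lost more of the V end. Trimming of V is a net value, in which bases running past the V end count as negative. On average 3.32 and 3.40 bases were trimmed from TRBV3 in Vsig4-deficient libraries, against 2.14 and 2.11 from other V segments. In wild-type libraries 3.32 and 3.31 bases were trimmed, against 2.14 and 2.19. Inserted bases numbered 3.39 in TRBV3 and 3.24 in other joints on average, and bases trimmed from J 2.35 and 2.55. A D segment was assigned to 81.5% of TRBV3 and 75.7% of other clonotypes. Where none was assigned, the inserted bases are the whole gap between V and J, so the 2 measures are not independent. Each of these differences had one sign in 4 of 4 libraries (exact sign-flip permutation p = 0.125, the smallest possible).

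Most TRBV3 receptors were private to a library. Of 16377 TRBV3 amino acid CDR3s with their J segment, 80.5% were listed in 1 library, 15.3% in 2, 3.31% in 3 and 0.922% in all 4. For other segments the shares were 85.2%, 11.5%, 2.50% and 0.832%. Of 16353 TRBV3 CDR3 amino acid sequences, 88.96% were encoded by 1 nucleotide sequence over the libraries, and the highest number was 13.

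The profile of the TRBV3 share over the 4 libraries was compared with that of the other 23 segments by the root mean square difference of centred log2 shares. By clonotypes the closest were TRBV17 (0.02), TRBV13-1 (0.04) and TRBV31 (0.04). By counts they were TRBV29 (0.12), TRBV12-1 (0.12) and TRBV19 (0.14). TRBV29 took 3.05% and 2.04% of in-frame counts in the Vsig4-deficient pair and 4.09% and 4.26% in wild-type libraries. These likenesses rest on 4 points each and are descriptive.

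The recurrent group was present in every library and large in 3 of them. It had 9 and 11 nucleotide sequences in the Vsig4-deficient pair and 12 and 8 in wild-type libraries, encoding 5 and 6, and 6 and 6, amino acid sequences. Its counts were 4924 and 232 in Vsig4-deficient libraries, against 5721 and 1190 in wild-type libraries. The genotypes overlapped, and Vsig4-deficient 2 was the low library. The group held 5.88% (5.73 to 6.04) and 0.258% (0.227 to 0.293) of TRBV3 counts in Vsig4-deficient libraries. It held 5.15% (5.02 to 5.28) and 1.04% (0.980 to 1.10) in wild-type libraries. By number it was 0.121% to 0.280% of TRBV3 clonotypes.

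The group made up most TRBV3-TRBJ1-3 counts in 2 libraries. It was 5.33% and 4.70% of TRBV3-TRBJ1-3 clonotypes in the Vsig4-deficient pair and 7.19% and 3.28% in wild-type libraries. Of the counts of these pairs it held 63.2% and 12.3% in the Vsig4-deficient pair, against 61.5% and 26.0% in wild-type libraries. Without the group, TRBJ1-3 took 3.65% and 1.84% of TRBV3 counts in the Vsig4-deficient pair and 3.39% and 2.99% in wild-type libraries. The TRBV3 share of all in-frame counts was little altered without the group, at 8.26% and 7.32% in the Vsig4-deficient pair and 12.1% and 13.3% in wild-type libraries.

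Each of the large sequences printed above had its high count in one library. Leu-Ala 1 had 3 and 4 counts in the Vsig4-deficient pair and 4414 and 18 counts in wild-type libraries. Leu-Gly 1 had 3287 and 108 counts in the Vsig4-deficient pair and 1 and 0 counts in wild-type libraries. Leu-Gly 2 was listed in wild-type 1 alone, with 1164 counts. These sequences thus reached their high counts in different libraries or with different arginine codons.

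Pro-Gly 1 had 2 and 5 counts in the Vsig4-deficient pair and 4 and 973 counts in wild-type libraries. Ser-Gly 1 had 690 and 8 counts in the Vsig4-deficient pair and 1 and 0 in wild-type libraries. Vsig4-deficient 1 also held Leu-Ala 2 (502 counts, with 9 in Vsig4-deficient 2) and Leu-Gly 3 (415 counts, with 3 in Vsig4-deficient 2). It was the library with the most large members. Ser-Gly 2 had 118 counts in wild-type 2 and Ser-Gly 3 had 118 counts in wild-type 1, so the main joint of this loop differed between Vsig4-deficient 1, wild-type 2 and wild-type 1. Leu-Gly 4, with 45 counts in Vsig4-deficient 2 and 1 count in wild-type 1, was the largest member whose highest count was in Vsig4-deficient 2. The 11 sequences had at most 3.12% of their highest share in any second library.

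**Figure D4:**
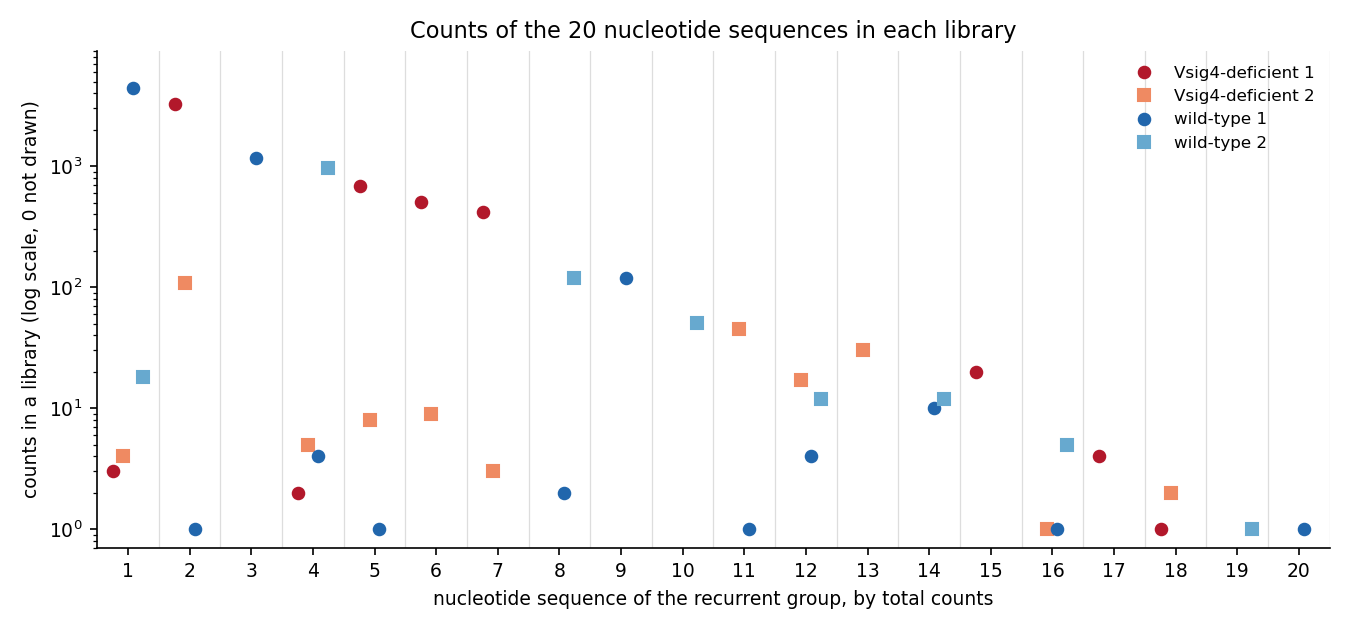
Counts on a log scale of each of the 20 nucleotide sequences of the recurrent TRBV3 group, ordered by total counts, in the 4 libraries; a count of 0 is not drawn. The large values belong to one library per sequence (4414, 3287, 1164 and 973 counts for the first 4), and Vsig4-deficient 2 has none above 108 counts.

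Read by amino acid variant, 4 loops were listed in all 4 libraries, and 1 of them, Leu-Gly, was still in all 4 with members under 1% of their share in another library left out. The Leu-Gly variant with the usual CASS start was encoded by 8 nucleotide sequences and had 3706 and 203 counts in the Vsig4-deficient pair and 1180 and 24 counts in wild-type libraries. The Leu-Ala variant, with 3 nucleotide sequences, had 525 and 13 counts in the Vsig4-deficient pair and 4414 and 18 in wild-type libraries. The Pro-Gly variant, with 2, had 2 and 5 counts in the Vsig4-deficient pair and 4 and 1024 in wild-type libraries. The Ser-Gly variant, with 3, had 690 and 8 counts in the Vsig4-deficient pair and 121 and 118 in wild-type libraries. With the low members left out, Leu-Ala was no longer listed in wild-type 2, Ser-Gly no longer in Vsig4-deficient 2, and Pro-Gly was listed in wild-type 2 alone.

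Of these variants, Leu-Gly and Ser-Gly were above 100 counts in both genotypes, as was Leu-Ala, while Pro-Gly was so in wild-type 2 alone. The other variants (Tyr-Gly, Phe-Gly, Arg-Gly and 1 Leu-Gly loop with a CAGS start) had 7, 3, 1 and 1 counts in all. Glycine stood at residue 6 in 17 of the 20 nucleotide sequences and leucine at residue 5 in 12. By number of encoding sequences, the Leu-Gly variant ranked 6 among the 16353 TRBV3 CDR3s, and by counts Leu-Gly and Leu-Ala ranked 2 and 3.

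Clone sizes in the group are given as a description, since the group was chosen from large clonotypes. Members with over 100 counts were 4 of 9 and 1 of 11 in the Vsig4-deficient pair and 3 of 12 and 2 of 8 in wild-type libraries. Of all TRBV3 clonotypes, 1.14% and 0.861% in the Vsig4-deficient pair and 2.66% and 0.515% in wild-type libraries had over 100 counts. The best member ranked 2 and 46 among TRBV3 clonotypes in the Vsig4-deficient pair and 1 and 2 in wild-type libraries.

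Part of the count of sequences came from low members. Members with 1 count numbered 1 and 1 in the Vsig4-deficient pair and 5 and 1 in wild-type libraries. Of the 20 sequences, 8 were listed in 1 library, 6 in 2, 4 in 3 and 2 in all 4. With members left out that had under 1% of their share in another library, 7 and 7 sequences remained in the Vsig4-deficient pair, against 9 and 7 in wild-type libraries. They encoded 4 and 4 amino acid sequences in the Vsig4-deficient pair, against 5 and 5 in wild-type libraries. Of the 20 nucleotide sequences, 12 were then in 1 library, 6 in 2, 2 in 3 and 0 in all 4. With 5% as the limit, set after the data were seen, the numbers were 7 and 5 in the Vsig4-deficient pair, against 7 and 7 in wild-type libraries. Every member was 1 mismatch (9 sequences) or 2 mismatches (11 sequences) from its nearest neighbour in the group. Joining of 1-nucleotide neighbours with counts at least 20 times apart left the number of sequences unchanged in every library. Neighbours with counts less than 20 times apart stayed separate. Among them, Pro-Gly 2 (51 counts) lies 1 mismatch from Pro-Gly 1 (973 counts) in wild-type 2. In wild-type 1 the loop with a CAGS start (1 count) lies 1 mismatch from a Leu-Gly sequence with 10 counts. Whether such members are copying errors was not tested.

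Families of loops were defined alike for all segments, by V segment, CDR3 length and last 9 residues, and 204 of them had at least 20 nucleotide sequences. The limit of 20 is the group's own number of sequences, and the group was chosen from large clonotypes. Its place among the families is therefore a description and no support. The recurrent group had the highest mean, 603 counts per nucleotide sequence, where the median family had 18.3. The next was a TRBV3 family of 15 residues ending in TGGYAEQFF, at 137, of which one sequence had 3519 of 4517 counts. Without its largest sequence the recurrent group had 401 counts per sequence, and the highest of the other families 52.3 when each lost its own. The group was not among the most diverse: of 60 families of 15-residue TRBV3 loops with at least 10 sequences it ranked 18 by their number.

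**Figure D5:**
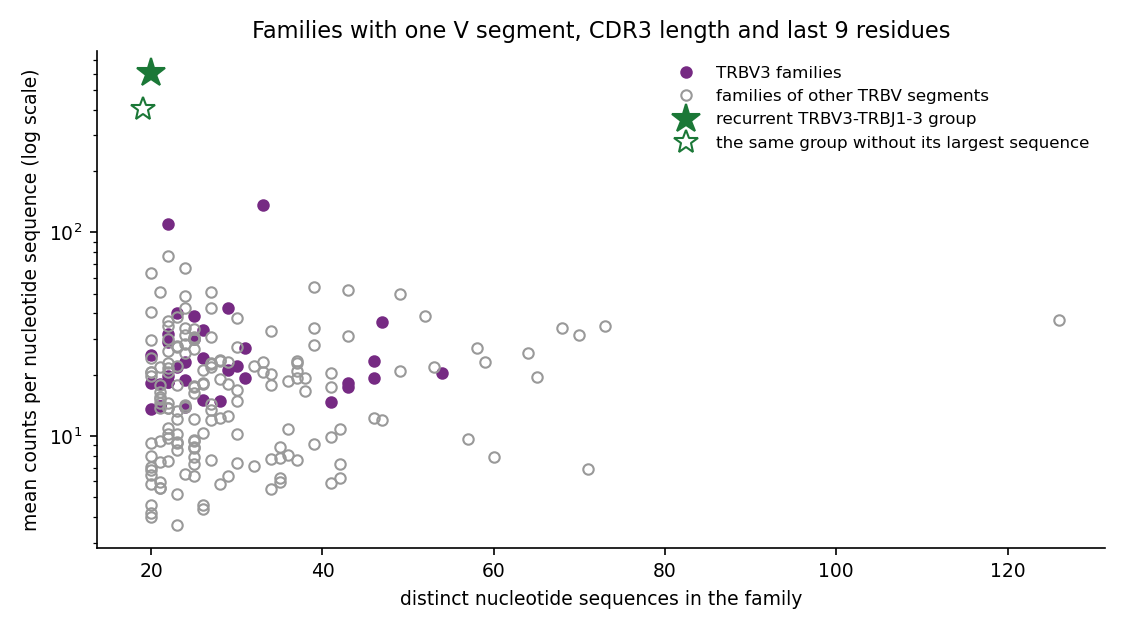
Mean counts per nucleotide sequence (log scale) against the number of distinct nucleotide sequences, for 204 families of clonotypes with one V segment, CDR3 length and last 9 residues. The recurrent TRBV3-TRBJ1-3 group (filled star, 603) lies above the other families with or without its largest sequence (open star, 401). The group was chosen from large clonotypes, so its place is a description.

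Loops related to the group were then sought by sequence. All TRBV3 loops with this ending had 15 residues. With the ending shortened to SGNTLYF, which TRBJ1-3 encodes, 156 nucleotide sequences of 15-residue TRBV3 loops were found, the group included. They had 13879 counts, of which the 20 with the arginine pair had 12067. Arginine at both residues 7 and 8 was found in 63 TRBV3 nucleotide sequences of 15 residues, with 16063 counts. TRBJ1-3 was the partner in 22 of these (12526 counts) and TRBJ2-4 in 7 (2569 counts), and the remaining J segments had 294 counts or fewer each.

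The TRBJ2-4 loops are shown because they match the group in length, in the arginine pair and in all of the last 9 residues but one, ending in RRSQNTLYF. The most abundant pair, with residues Pro-Gly at positions 5 and 6 and the same capitals, are given here with the most abundant loop of another V segment that ends like the group, a TRBV13-1 joint with Glu-Gly at residues 5 and 6.
TRBV3-TRBJ2-4 Pro-Gly 1: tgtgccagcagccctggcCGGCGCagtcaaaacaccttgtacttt
TRBV3-TRBJ2-4 Pro-Gly 2: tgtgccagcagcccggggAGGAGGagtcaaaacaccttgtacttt
TRBV13-1-TRBJ1-3 Glu-Gly: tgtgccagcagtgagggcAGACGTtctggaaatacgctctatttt

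The loops ending in RRSQNTLYF had 6 nucleotide sequences, with 8 and 12 counts in the Vsig4-deficient pair and 2083 and 78 counts in wild-type libraries. Wild-type 1 was the high library. The first printed joint had 5 and 0 counts in the Vsig4-deficient pair, against 1354 and 6 in wild-type libraries. The second had 0 and 0 counts in the Vsig4-deficient pair, against 689 and 1 in wild-type libraries. In wild-type 1 the arginine pair thus followed Pro-Gly with TRBJ2-4 and Leu-Ala or Leu-Gly with TRBJ1-3 among the 3 largest TRBV3 clonotypes.

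Other V segments carried the ending rarely. Over all other TRBV segments, 7 nucleotide sequences of 15 residues ended in RRSGNTLYF, with 1197 counts. The printed TRBV13-1 joint had 0 and 0 counts in the Vsig4-deficient pair and 707 and 78 counts in wild-type libraries. A TRBV13-3 joint had 346 and 5 counts in the Vsig4-deficient pair and 0 and 0 counts in wild-type libraries. The remaining 5 had 24 counts or fewer. Of 15-residue TRBJ1-3 loops, 20 of 211 nucleotide sequences of TRBV3 but 7 of 1973 of the other segments belonged to these endings, and since the ending was chosen in TRBV3 no test is given.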

How the data were processed

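T-cell receptor libraries were made by reverse transcription from RNA of sorted CD8+ cells, per the labels' protocols. The submitters' processing notes name mm10. How clonotypes were assembled, and whether a count is a read or a molecule, is not stated by any label or header. The deposited counts, per the file headers, are whole clone counts per CDR3 nucleotide sequence, listed with V, D and J hits. The clone fraction in the deposited tables was each count divided by the total, and served for that check alone. The deposited quality score ran from 25 to 37 and was not filtered on. Totals were 901567 to 1269480 counts per library.

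The first V hit was taken where hits were tied (4 to 23 TRBV3 clonotypes per library). Trimming and insertion lengths came from the deposited reference points. Genotypes and numbers came from the labels, and each of the 4 tables held 1 sample. All 38 V and J segments matched RefSeq genes of GRCm38.p6.

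TRBV segments and V-J pairs were tested over the whole table with edgeR 4.0.16 (quasi-likelihood, offsets from library totals, features with at least 10 counts or clonotypes over the libraries, Benjamini-Hochberg adjustment, threshold 0.05) in R 4.3.3. DESeq2 1.42.0 was an alternative. Other values used SciPy 1.17.1, pandas 2.3.3 and numpy 2.4.6 in Python 3.11.15, with exact permutation tests over the 6 assignments of 4 libraries or over the signs of 4 differences, two-sided. Plots were drawn with matplotlib 3.10.9. The scripts were tested on simulated data.

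The members, lists and tests were chosen with earlier results of these data known. The named genes were TRBV3, its 12 J partners, its 3 largest clonotypes per library, the segments of most similar profile and the members of the group. The alternatives were TMM normalization, DESeq2, no filter, the replicate number as a block, clonotypes with 1 count left out, joining of 1-nucleotide neighbours, removal of clonotypes below 1% of their share in another library, amino acids as the clonotype, weighting by counts, the 50 in place of the 10 largest clonotypes, and removal of each library in turn. The 5% limit and the removal of the 10 largest clonotypes were added after the data were seen.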

Additional observations from a re-analysis of the deposited data

Results flagged for a closer look

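Mean counts per clonotype, TRBV3 against other segments, ran in opposite directions in the genotypes. The log2 difference was -0.05 and -0.43 in Vsig4-deficient libraries (mean -0.24), and 0.56 and 0.65 in wild-type libraries (mean 0.60). This measure follows from the TRBV3 share of counts, for which TRBV3 was chosen, so the difference between genotypes was not tested.

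The share of counts joined to the first J cluster, TRBV3 minus other segments, also differed in sign. It averaged 6.83 percentage points in Vsig4-deficient libraries and -3.56 in wild-type libraries. A measure was flagged here only if its signs were opposite in the genotypes. With 2 libraries each, that fixes the exact permutation p at 0.333 in advance, so no test is read from it. In Vsig4-deficient 2 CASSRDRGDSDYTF, a TRBJ1-2 clonotype, held 13.6% of TRBV3 counts, and in Vsig4-deficient 1 the TRBJ1-3 sequence Leu-Gly 1 held 3.93%. The part of single large clonotypes in this difference was not tested.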

How the results depend on the processing

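With 2 libraries per genotype, the exact tests between genotypes cannot go below 0.333, and bulk RNA counts do not give cell numbers. The log2 ratio of the TRBV3 share of clonotypes ranged over 0.00274 to 0.10 with each library left out, and edgeR's adjusted p was under 0.05 without Vsig4-deficient 1 alone, where 13 of 23 segments were called. That of counts ranged over -0.83 to -0.58, given as a size alone because TRBV3 was chosen for it. The number of TRBV3 pairs called was 0 to 1. With the replicate block, which shares numbers but no stated pairing, the log2 ratios were 0.05 (edgeR adjusted p = 0.865) and -0.70, and 0 pairs were called. Deviations of same-numbered libraries correlated at 0.12 over 24 segments. With 2 libraries per genotype these deviations mirror each other, so both numbers must give this same value. The lower TRBJ1 cluster share of TRBV3 reversed to 1.64 percentage points when weighted by counts. The number of group sequences was 7 in Vsig4-deficient 2 with the 1% limit and 5 with the 5% limit, where its share of TRBV3 counts was 0.107%. It was 7 in wild-type 1 without clonotypes of 1 count and 7 with the 5% limit. The cause of these changes was not tested, beyond the fewer sequences each setting keeps. The other alternatives kept the direction of the mean and the side of the threshold. Without clonotypes of 1 count, however, the in-frame share of TRBV3 was above the out-of-frame share in 3 of 4 libraries (mean 0.923 points, exact sign-flip permutation p = 0.25).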
